A study of Mus musculus with 8 samples.

Results

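Proteasome gene transcripts were followed in RNA from the whole brain of 4 Hfe-/-xTfr2mut and 4 wild-type mice. Genes were taken by symbol, as every gene whose name begins with Psm, a letter from a to g and a digit. Of 16593 genes named on the array, 45 met this rule. Of these, 43 encode proteasome subunits, activators or assembly chaperones, and the other 2, *Psmc3ip* and *Psme3ip1*, only share the start of the name.

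All mice were males of the AKR strain aged 13 weeks. The Hfe-/-xTfr2mut mice were homozygous for a disrupted hemochromatosis gene (*Hfe*) and a mutated transferrin receptor 2 gene (*Tfr2*), and they ate a diet with 2% carbonyl iron for the last 3 weeks of life. The wild-type mice carried neither mutation and ate standard chow holding about 0.02% iron throughout, and effects of genotype and of diet cannot be told apart. Both mutations are carried by every cell of the body, and the tissue is the whole brain, taken after blood was flushed out with saline through the heart. The 8 RNA samples, each labelled as a separate replicate, were hybridised on the 8 positions of 1 Illumina BeadChip, and p-values measure the spread between these samples.

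The proteasome is the protease that degrades proteins tagged with ubiquitin. Its barrel-shaped 20S core is built of outer rings of alpha subunits and inner rings of beta subunits, and 3 of the beta subunits cut peptide bonds. The 19S cap, with ATPase and non-ATPase subunits, binds the tagged protein, removes the ubiquitin and threads the chain into the core. Under interferon the catalytic beta subunits are replaced by *Psmb8*, *Psmb9* and *Psmb10*, which form the immunoproteasome and favour peptides for antigen presentation. Neurons and glia rely on the constitutive form to clear misfolded and oxidised proteins.

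A probe was analysed when its detection p-value was below 0.01 in every array of at least 1 group, which left 8051 genes, each read from its brightest probe. This kept 38 of the 43 proteasome genes, all 38 detected in all 8 arrays. The probes of *Psma1*, *Psma6*, *Psmb8* and *Psmb9* were detected in 0 arrays, and that of *Psmc6* in 2 of 4 Hfe-/-xTfr2mut and 3 of 4 wild-type arrays. *Psma1* and *Psma6* encode obligatory alpha subunits, and the probe of the abundant neuronal gene *Snap25* was also detected in 0 arrays, so an undetected probe gives no level of its transcript. Detected probes numbered 11188 to 11751 in Hfe-/-xTfr2mut arrays and 11568 to 12192 in wild-type arrays. Among tissue markers, 7 of 10 neuronal, all 8 astrocyte and 6 of 7 oligodendrocyte genes were analysed, while of 6 T and B cell genes none was. The detected *Hfe* probe read 314 to 356 in Hfe-/-xTfr2mut arrays and 123 to 140 in wild-type arrays. Where this probe sits with respect to the disruption was not known, which leaves it no check on the labels, and neither *Tfr2* probe was detected.

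Most proteasome genes lay slightly higher in the Hfe-/-xTfr2mut brain. Of the 38 genes, 32 had a positive and 6 a negative log2 change, with a median of 0.085, whereas 50.1% of all 8051 genes were positive with a median of 0.00048. In the authors' average-normalized table, where the median of all genes was -0.083 and 3.38% of them were higher and 12.2% lower, 24 of the 38 members were positive and 34 lay above that median. At the study's threshold, an unadjusted p under 0.05 (limma, two-sided), 5 genes were higher, or 13.2% of the members against 6.79% of all genes, and 0 were lower, against 5.7% of all genes. The 5 were the alpha subunits *Psma2* and *Psma7*, the beta subunit *Psmb6*, the immunoproteasome subunit *Psmb10* and the assembly chaperone *Psmg3*. After Benjamini-Hochberg adjustment over all probes 0 members passed, with a lowest adjusted p of 0.215 (limma), while 0.199% of all genes did. The changes were small, from -0.42 for *Psme3* to 0.43 for *Psmb10*, and 18 of the 38 lay within 0.1 of 0 on the log2 scale. Their standard errors ran between 0.082 and 0.23 with a median of 0.11, larger than the median change.

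Without overlap between the groups, 5 members were higher (*Psma2*, *Psma5*, *Psmb6*, *Psmb10* and *Psmg3*) and 0 lower, also 13.2% against 4.56% of all genes for higher values, and 3.48% for lower ones. Over all 52 analysed probes of these genes, some of which read the same gene, 45 had a positive change. At the same threshold 6 were higher and 0 lower, beside 6.79% and 5.7% of all genes read from 1 probe each. The share over all analysed probes was not counted. Of 12 genes with at least 2 analysed probes, the probes had 1 sign in 9 and both signs in *Psmb7*, *Psmd11* and *Psmg2*, where 0 probes passed. Probe brightness, which is no transcript level, was high for most members. When all genes were divided by brightness into 4 equal groups, the brightest held 25 of the 38, of which 22 were positive with a median of 0.11, against 51.2% positive and a median of 0.0046 for all 2013 genes in that group.

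**Figure D1:**
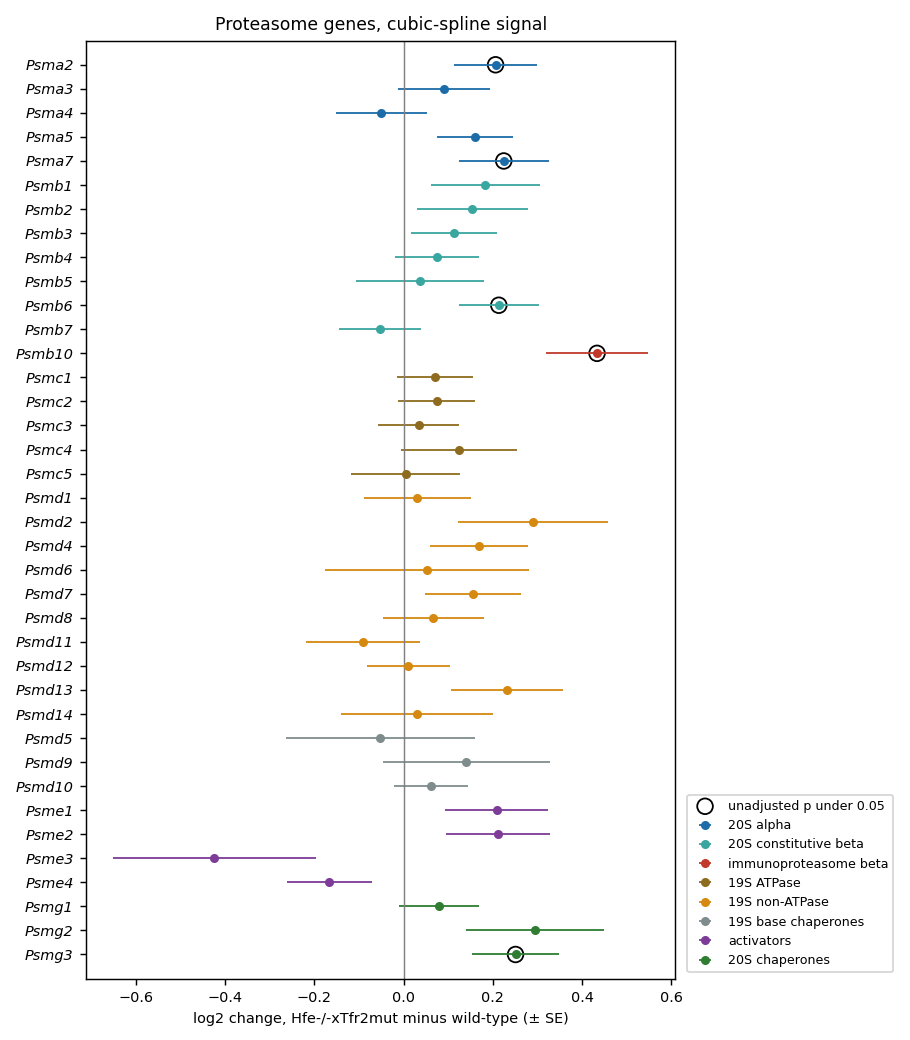
Log2 change of the 38 analysed proteasome genes, Hfe-/-xTfr2mut minus wild-type (points, with bars of 1 SE; n = 4 arrays each), by class, with circles at an unadjusted p under 0.05. Of the 38 points 32 lie right of 0, and *Psmb10* at 0.43 and *Psme3* at -0.42 are the ends of the range.

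The sequences just before the start of the 5 genes that passed are shown because promoters of proteasome genes are known to carry antioxidant response elements, through which the factor Nfe2l1 raises them when degradation is impaired. They are from RefSeq (GRCm38.p6), 5′ to 3′ on the strand of the gene, and end next to the annotated gene. Capitals mark CCAAT, the box that the factor NF-Y binds.
Psma2 (chr13:14613042-14613241, plus strand): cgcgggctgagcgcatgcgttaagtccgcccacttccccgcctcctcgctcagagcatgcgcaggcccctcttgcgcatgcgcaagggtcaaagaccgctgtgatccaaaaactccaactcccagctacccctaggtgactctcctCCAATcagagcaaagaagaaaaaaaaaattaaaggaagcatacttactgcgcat
Psma7 (chr2:180042465-180042664, minus strand): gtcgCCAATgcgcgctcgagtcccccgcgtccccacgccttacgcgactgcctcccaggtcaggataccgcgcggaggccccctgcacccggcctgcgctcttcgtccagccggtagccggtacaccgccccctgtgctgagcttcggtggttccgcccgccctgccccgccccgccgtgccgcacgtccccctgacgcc
Psmb6 (chr11:70525157-70525323, plus strand): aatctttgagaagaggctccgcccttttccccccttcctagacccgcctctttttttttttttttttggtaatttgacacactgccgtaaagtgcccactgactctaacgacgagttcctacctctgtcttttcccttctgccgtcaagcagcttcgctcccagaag
Psmb10 (chr8:105938393-105938592, minus strand): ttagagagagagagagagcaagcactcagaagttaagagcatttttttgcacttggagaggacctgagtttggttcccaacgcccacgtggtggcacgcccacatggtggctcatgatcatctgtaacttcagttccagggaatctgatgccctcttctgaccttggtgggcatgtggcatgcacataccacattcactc
Psmg3 (chr5:139826895-139827094, minus strand): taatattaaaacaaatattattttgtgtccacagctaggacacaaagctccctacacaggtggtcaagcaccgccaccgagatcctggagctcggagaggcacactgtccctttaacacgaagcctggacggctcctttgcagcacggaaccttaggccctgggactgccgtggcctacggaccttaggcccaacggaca
CCAAT stands in the stretches of *Psma2* and *Psma7* and in none of the other 3 shown. The core of the antioxidant response element, TGACNNNGC, was searched on both strands with CCAAT in windows of 300 bases, 250 before and 50 after the start. A window was held for 37 of the 43 members (not for *Psmb1*, *Psmb2*, *Psmb7*, *Psmc3*, *Psmd7* and *Psmg2*). The core was found in 6 of them, or 16.2%, namely *Psmb5*, *Psmb6*, *Psmc6*, *Psmd12*, *Psmd9* and *Psme4*, against 14.0% of 27025 genes. In *Psmb6* it lies in the 33 bases inside the annotated gene that were left off above. CCAAT was found in 13, or 35.1%, against 41.1% of all genes. Of the members analysed, the 5 with the core had a median change of 0.037 and 4 positive values, and the 27 without it a median of 0.079 and 23 positive values. A match is a run of letters, not a bound site.

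Among the 20S alpha subunits, 5 of 7 genes were analysed, 4 of them positive, with a median change of 0.16. *Psma2* (chromosome 13, 14613242 to 14625673), which encodes an outer-ring subunit, had signals of 12489, 13446, 13026 and 14068 in Hfe-/-xTfr2mut arrays, against 11996, 12215, 10289 and 11523 in wild-type arrays. Every Hfe-/-xTfr2mut value lay above every wild-type value. The log2 change was 0.21 ± 0.093 (SE; limma, p = 0.0495, adjusted p = 0.391), and the exact permutation p was 0.0286, the smallest that 4 against 4 arrays allow. *Psma2* lies 9.08 Mb from *Hfe* on the same chromosome. *Psma7*, another outer-ring subunit (chromosome 2, 180036367 to 180042464), read 3867, 4126, 3552 and 3793 in Hfe-/-xTfr2mut arrays, against 2886, 3272, 3691 and 3310 in wild-type arrays. Here wild-type replicate 3 lay above Hfe-/-xTfr2mut replicate 3. The change was 0.22 ± 0.10 (limma, p = 0.0492, adjusted p = 0.390; exact permutation p = 0.0571), and its other probe gave 0.23 (limma p = 0.0502, exact permutation p = 0.0857).

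*Psma5* (chromosome 3, 108256926 to 108279952) did not pass the threshold, although its groups did not overlap. Its signals were 9372, 9358, 9111 and 9547 in Hfe-/-xTfr2mut arrays, against 7859, 8342, 8939 and 8346 in wild-type arrays (log2 change 0.16 ± 0.085, limma p = 0.0851, adjusted p = 0.452, exact permutation p = 0.0286). The other alpha subunits were close to level, with changes of 0.091 for *Psma3* and -0.050 for *Psma4*.

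All 7 constitutive beta subunits were analysed, 6 were positive, and the median change was 0.11. *Psmb6*, the constitutive subunit with caspase-like activity (chromosome 11, 70525324 to 70527858), was the one that passed. Its signals were 5867, 6201, 5900 and 6258 in Hfe-/-xTfr2mut arrays, against 5110, 5528, 5511 and 4775 in wild-type arrays. The groups did not overlap, with means of 6057 ± 201 in Hfe-/-xTfr2mut and 5231 ± 360 in wild-type mice (SD, n = 4 each) and a change of 0.21 ± 0.089 (SE; limma, p = 0.0362, adjusted p = 0.364; exact permutation p = 0.0286). The other catalytic subunits, *Psmb5* with chymotrypsin-like and *Psmb7* with trypsin-like activity, had changes of 0.037 and -0.053, and the other probes of *Psmb7* gave 0.18 and 0.19. *Psmb4*, a structural subunit, read 13584, 11746, 14100 and 14071 in Hfe-/-xTfr2mut arrays, against 12257, 12890, 13346 and 12211 in wild-type arrays. Hfe-/-xTfr2mut replicate 2 was the lowest of the 8, and the log2 difference was 0.075 (exact permutation p = 0.286).

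*Psmb10*, the immunoproteasome subunit that takes the place of *Psmb7* (chromosome 8, 105935728 to 105938392), showed the highest change of all members. Its signals were 2652, 2804, 2454 and 2733 in Hfe-/-xTfr2mut arrays, against 1615, 1954, 2257 and 2105 in wild-type arrays. Every Hfe-/-xTfr2mut value lay above every wild-type value, and wild-type replicate 1 was lowest. Means were 2661 ± 151 in Hfe-/-xTfr2mut and 1983 ± 274 in wild-type mice (SD, n = 4 each), a geometric mean 35.0% higher, with a change of 0.43 ± 0.11 (SE; limma, p = 0.0032, adjusted p = 0.215; exact permutation p = 0.0286). Its second probe gave 0.22 with overlapping groups (limma p = 0.0548, exact permutation p = 0.0857). The partner subunits had undetected probes, *Psmb8* with mean signals of 25.2 in Hfe-/-xTfr2mut and 29.2 in wild-type arrays and *Psmb9* with 18.6 in Hfe-/-xTfr2mut and 17.6 in wild-type arrays, so the immunoproteasome was read from 1 of 3 genes.

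Other genes of antigen processing and of immune cells were read beside it. Of 13 interferon-induced antigen processing genes on the array, 5 were analysed, and 0 were higher or lower at the threshold, with a median change of 0.10. Among these *B2m*, the light chain of MHC class I, had a change of -0.024, *Irf1* -0.065 and the peptide transporter subunit *Tap2* 0.23 (exact permutation p = 0.543). *Ifit3* had a change of 0.13 and *Isg15* of 0.10. All 9 microglia markers were analysed, 8 were positive with a median of 0.20, and 3 were higher at an unadjusted p under 0.05, *Aif1* by 0.27, *Trem2* by 0.25 and *Tyrobp* by 0.37. Summed signals of the 9 ran between 3901 and 4176 in Hfe-/-xTfr2mut arrays and between 3427 and 3873 in wild-type arrays. *Cd3e*, a T cell gene, was detected in 3 Hfe-/-xTfr2mut arrays and 1 wild-type array, and the other 5 T and B cell genes in 0 arrays. The part of these cells in the *Psmb10* values was not tested, and in whole-brain RNA more cells of a type and more RNA per cell cannot be told apart.

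**Figure D2:**
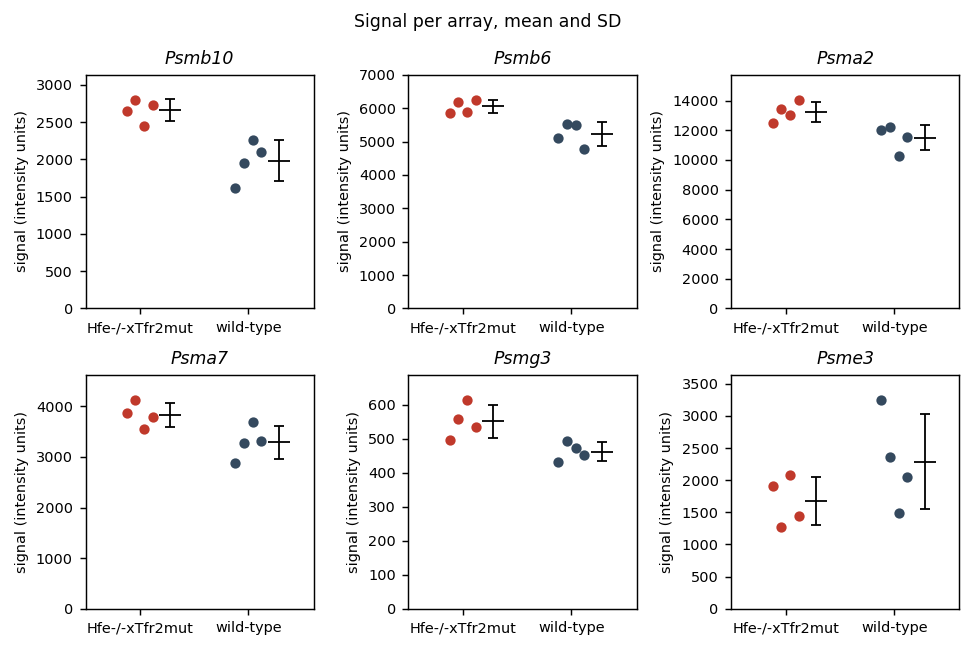
Cubic-spline signal (intensity units) of 6 proteasome genes in each of 4 Hfe-/-xTfr2mut (left) and 4 wild-type arrays (right), with the group mean and SD beside the points. The groups are separate for *Psmb10*, *Psmb6*, *Psma2* and *Psmg3* and overlap for *Psma7* and *Psme3*.

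The 19S cap genes lay nearer to level. Of the 6 ATPase subunits, 5 were analysed and all 5 were positive, with a median of 0.070 and a range of 0.0045 to 0.12. *Psmc2* read 9485, 10496, 9524 and 10262 in Hfe-/-xTfr2mut arrays, against 9988, 9270, 9362 and 9142 in wild-type arrays (log2 difference 0.074, exact permutation p = 0.171). *Psmc4*, with the highest change in the ring, read 4827, 6204, 4559 and 5064 in Hfe-/-xTfr2mut arrays, against 3929, 4736, 5500 and 4789 in wild-type arrays. Its groups overlapped widely, and the change was 0.12 (exact permutation p = 0.400).

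All 10 non-ATPase subunits of the cap that met the symbol rule were analysed, 9 were positive, the median was 0.059 and none passed. *Psmd4*, a ubiquitin receptor of the cap, read 9120, 10553, 8215 and 9804 in Hfe-/-xTfr2mut arrays, against 7337, 8256, 8907 and 8992 in wild-type arrays (log2 difference 0.17, exact permutation p = 0.143). *Psmd2*, a large scaffold subunit, had dim signals of 155, 180, 138 and 198 in Hfe-/-xTfr2mut arrays, against 142, 99.9, 171 and 141 in wild-type arrays (log2 difference 0.29, exact permutation p = 0.200). In both genes the groups overlapped. *Psmd14*, the deubiquitinase that removes ubiquitin chains, had a difference of 0.030 ± 0.17, and *Psmd11*, which stabilises the capped particle, was the 1 negative value at -0.091. In wild-type replicate 1, *Psmd14* read 2692 and *Psmd6* 436, each the highest of its 8 values.

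The 12 core genes had a median change of 0.13 and the 15 cap genes of 0.067. All of these genes met the symbol rule. There were 10 positive values in the core and 14 in the cap, and 3 of these core genes and 0 of these cap genes passed. The core had the larger median but the smaller share of positive values. *Sem1*, a cap subunit outside the symbol rule, passed with a log2 change of 0.21 and is given below. The difference between the particles was not tested.

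Chaperones of the core and of the cap were read as separate classes. *Psmg3*, which with *Psmg4* guides alpha-ring assembly (chromosome 5, 139823613 to 139826894), read 497, 558, 614 and 533 in Hfe-/-xTfr2mut arrays, against 431, 494, 472 and 451 in wild-type arrays. The groups were separate by a narrow margin, with 497 as the lowest Hfe-/-xTfr2mut and 494 as the highest wild-type value, and the change was 0.25 ± 0.098 (SE; limma, p = 0.0263, adjusted p = 0.344; exact permutation p = 0.0286). It lies 2.24 Mb from *Tfr2*. *Psmg2*, the partner of *Psmg1*, read 886, 1063, 776 and 923 in Hfe-/-xTfr2mut arrays, against 546, 771, 892 and 795 in wild-type arrays (log2 difference 0.29, limma p = 0.0845, exact permutation p = 0.143), but its second probe gave -0.019. *Psmg1* had a difference of 0.079. With *Psma2* and *Psmg3* set aside as the members within 10 Mb of a mutated gene, 36 genes were left, 30 of them positive, with a median of 0.077. At the threshold 3 of the 36 were higher, beside 6.79% of all genes.

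Of the 3 chaperones of the cap base, *Psmd10*, known as gankyrin, read 1508, 1621, 1577 and 1647 in Hfe-/-xTfr2mut arrays, against 1519, 1534, 1544 and 1487 in wild-type arrays (log2 difference 0.061, exact permutation p = 0.114). Another *Psmd10* probe gave 0.26 (limma, p = 0.0286; exact permutation p = 0.0571). *Psmd9* read 159, 122, 147 and 123 in Hfe-/-xTfr2mut arrays, against 167, 150, 99.7 and 95.3 in wild-type arrays (log2 difference 0.14, exact permutation p = 0.543), and *Psmd5* had a difference of -0.052.

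The activators that cap the core without ATPases divided by sign. *Psme1* and *Psme2* form the interferon-induced PA28 ring of the cytoplasm. *Psme1* read 1839, 1772, 1806 and 1692 in Hfe-/-xTfr2mut arrays, against 1571, 1820, 1254 and 1557 in wild-type arrays (log2 difference 0.21 ± 0.12, limma p = 0.0997, exact permutation p = 0.114). *Psme2* read 388, 406, 360 and 380 in Hfe-/-xTfr2mut arrays, against 271, 350, 390 and 325 in wild-type arrays (log2 difference 0.21 ± 0.12, limma p = 0.0974, exact permutation p = 0.114). In each, 1 wild-type array lay within the Hfe-/-xTfr2mut range and the other 3 below it.

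*Psme3*, the PA28 ring of the nucleus (chromosome 11, 101316213 to 101323537), had the lowest change of all members. Its signals were 1910, 1274, 2073 and 1440 in Hfe-/-xTfr2mut arrays, against 3248, 2356, 1493 and 2054 in wild-type arrays. The values were widely spread in both groups and overlapped, with means of 1674 ± 379 in Hfe-/-xTfr2mut and 2288 ± 733 in wild-type mice (SD, n = 4 each), and the change was -0.42 ± 0.23 (SE; limma, p = 0.0899, adjusted p = 0.459; exact permutation p = 0.171). *Psme4*, the PA200 activator, had a difference of -0.17 ± 0.095 (limma, p = 0.109; exact permutation p = 0.0571).

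The members were also followed array by array. The median deviation of the 38 genes from their own means over 8 arrays was 0.062, 0.069, 0.027 and 0.064 in the Hfe-/-xTfr2mut arrays, against -0.078, -0.027, -0.0031 and -0.090 in the wild-type arrays. Every Hfe-/-xTfr2mut median was above every wild-type median. Over all 8051 genes the same medians lay between -0.0036 and 0.0073 in Hfe-/-xTfr2mut arrays and between -0.013 and 0.016 in wild-type arrays. In Hfe-/-xTfr2mut arrays 22 to 30 of the 38 genes lay above their own mean, and in wild-type arrays 6 to 18. By class, the medians of the 5 alpha subunits separated the arrays in the same way, at 0.043 to 0.099 in Hfe-/-xTfr2mut and -0.098 to -0.0028 in wild-type arrays, and those of the 3 core chaperones at 0.013 to 0.15 in Hfe-/-xTfr2mut and -0.22 to -0.011 in wild-type arrays. The medians of the ATPase, non-ATPase and constitutive beta subunits, the base chaperones and the activators overlapped. These deviations describe the arrays from which the changes above were computed and are no separate support for them.

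**Figure D3:**
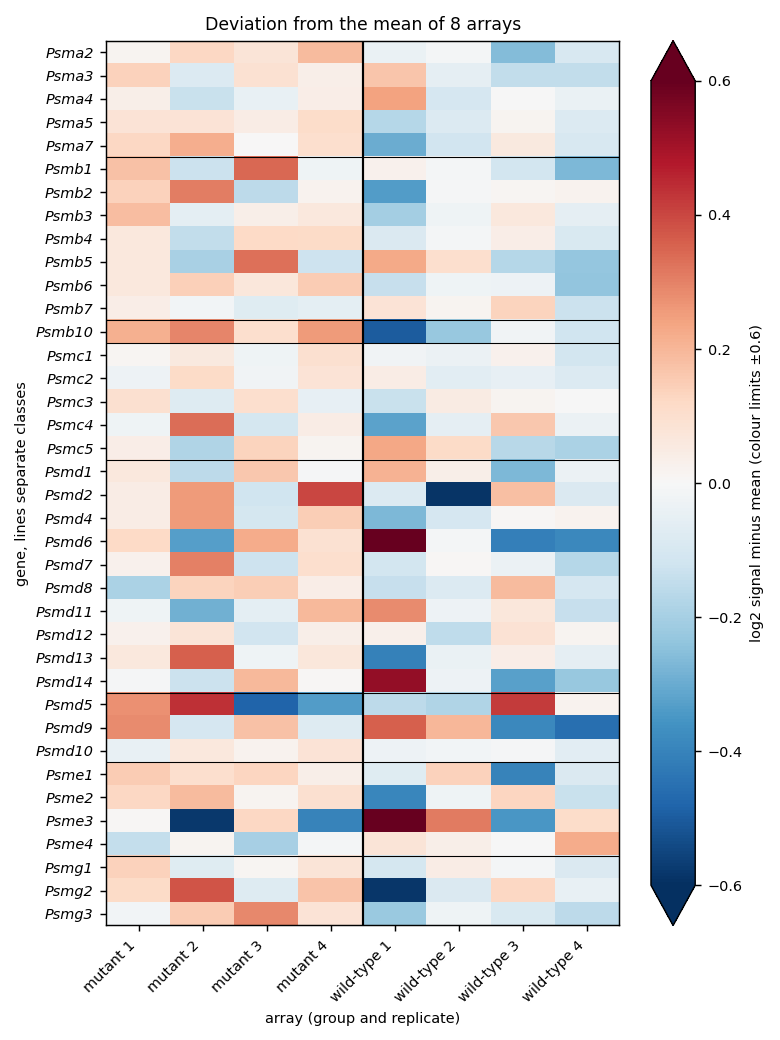
Deviation of each proteasome gene (rows, grouped by class) from its mean log2 signal over 8 arrays, with 4 Hfe-/-xTfr2mut arrays left of the line and 4 wild-type arrays right of it. *Psmb10* and the alpha subunit *Psma5* are above their mean in all 4 Hfe-/-xTfr2mut arrays, and *Psme3* and *Psmd6* are far above it in wild-type replicate 1.

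Proteins that work with the proteasome but lie outside the symbol rule were read next. Of 8 associated proteins 6 were analysed, 3 positive and 3 negative, with a median of 0.050. *Sem1*, the smallest cap subunit, was the 1 that passed and read 7409, 6946, 7686 and 8613 in Hfe-/-xTfr2mut arrays, against 6640, 6496, 6671 and 6615 in wild-type arrays. The groups did not overlap, and the change was 0.21 ± 0.093 (SE; limma, p = 0.0456, adjusted p = 0.384; exact permutation p = 0.0286). *Pomp*, the maturation chaperone of the core, had a difference of 0.19 (exact permutation p = 0.0571). The deubiquitinases of the cap, *Usp14* and *Uchl5*, had differences of -0.11 and -0.063.

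In the lists of the wider ubiquitin pathway 0 genes passed in either direction. Of 9 genes that control proteasome expression 5 were analysed, 1 was positive and the median was -0.039, with *Nfe2l1* itself at -0.058 (exact permutation p = 0.371). The positive one was *Keap1* at 0.061. This list was not divided into genes that raise and genes that lower proteasome expression. Probes of *Nfe2l2*, *Ngly1*, *Maff* and *Mafk* were detected in 0 arrays. Of 9 ubiquitin shuttle and segregase genes 8 were analysed and 2 were positive (median -0.068), among them the segregase *Vcp* at 0.066. Of 10 ubiquitin ligases and conjugating enzymes 7 were analysed and 1 was positive (median -0.058). These medians lay on the other side of 0 from that of the subunits.

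Markers of the main brain cell types were read on the same arrays. All 6 analysed oligodendrocyte genes were negative (median -0.17) and *Cnp* fell by 0.23. Of the 7 neuronal genes 1 was positive and 6 were negative (median -0.13), and *Syt1* was lower. The summed signal of the 7 was 49851 to 54182 in Hfe-/-xTfr2mut arrays and 50001 to 62369 in wild-type arrays. Of 8 astrocyte genes 4 were positive and 4 negative (median -9.4e-05), with *Aldh1l1* lower (log2 change -0.29). All 4 choroid plexus genes were negative (median -0.17), with *Kl* lower (log2 change -0.34). Of 8 endothelial and pericyte genes on the array 4 were analysed, all 4 negative (median -0.49), and 3 were lower, beside 5.7% of all genes. Of these *Slco1a4*, detected in 1 of 4 Hfe-/-xTfr2mut and 4 of 4 wild-type arrays, was kept only through the wild-type group. Both analysed hemoglobin genes were higher, *Hba-a1* by 1.06 and *Hbb-b2* by 1.32. Here *Hbb-b2*, detected in 4 of 4 Hfe-/-xTfr2mut and 3 of 4 wild-type arrays, was kept only through the Hfe-/-xTfr2mut group. In both hemoglobin genes the groups overlapped. The methods describe a saline perfusion before the brain was taken, and blood left after it was not measured apart from these genes. The part of cell make-up and of hemoglobin transcripts in the subunit values was not tested.

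The 2 genes taken by symbol alone are not part of these counts. *Psmc3ip*, a recombination factor of meiosis, read 312, 343, 337 and 382 in Hfe-/-xTfr2mut arrays, against 260, 313, 175 and 255 in wild-type arrays. Wild-type replicate 2 lay just above the lowest Hfe-/-xTfr2mut value, and the change was 0.48 ± 0.16 (SE; limma, p = 0.0120, adjusted p = 0.297; exact permutation p = 0.0571). *Psme3ip1*, named for its interaction with *Psme3*, had a difference of 0.10 (exact permutation p = 0.400).

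Under 20 other ways of processing the arrays, the median change of the members stayed between 0.058 and 0.11. *Psmb10* kept an unadjusted p under 0.05 in 20 of 20, *Psmg3* in 15, *Psmb6* in 13 and *Psma2* and *Psma7* in 10 each. The median of the core genes exceeded that of the cap genes in each of these settings, which share the same arrays.

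**Figure D4:**
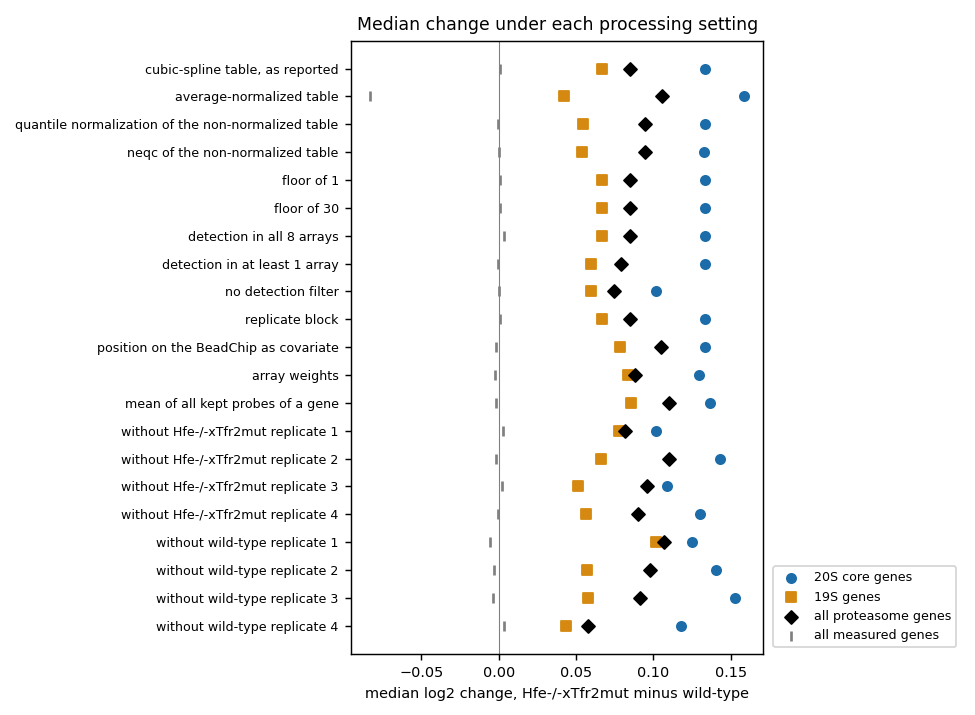
Median log2 change, Hfe-/-xTfr2mut minus wild-type, of all proteasome genes (diamonds), 20S core genes (circles), 19S cap genes (squares) and all measured genes (ticks) under the reported processing and 20 alternatives. The diamonds stay between 0.058 and 0.11, and the ticks stay near 0 except in the average-normalized table at -0.083.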

How the data were processed

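Per the labels and the study's methods, total RNA was amplified, biotin-labelled and hybridised to a MouseRef-8 v2 BeadChip (Illumina), whose tables list 25697 probes. The authors subtracted background and normalized in GenomeStudio, with settings that were not known here. They deposited 3 tables of intensity, without normalization, average-normalized and cubic-spline-normalized. Each deposited table also lists a detection p-value per probe and array, set against the negative controls. In the cubic-spline table, used here, 23.50% to 23.55% of probes per array were below 0. No read depth exists for arrays, and their number limits the precision.

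Probes were named through Entrez gene identifiers matched to RefSeq's gene table (23962 probes) or the platform annotation (16), and 1719 were unnamed. Signals under 10 were set to 10 and log2 was taken. The 11204 probes kept were fitted with limma 3.58.1 (R 4.3.3; data.table package, version 1.17.8) as the difference of Hfe-/-xTfr2mut and wild-type arrays, and p-values were adjusted over all of them by Benjamini and Hochberg's method. The study applied no multitest correction and its text names no test. Exact permutation tests were two-sided over 70 labelled splits. Lists were described by counts and medians. The procedure was tested on simulated data. Probe signals are not comparable between genes, and the place of a probe in its transcript was not used.

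Values in every array are given for members at an unadjusted p under 0.05 or without overlap, and for the brightest and the most changed member of each class. They are also given for *Psme1* and *Psme2*, members within 10 Mb of *Hfe* or *Tfr2*, and genes that passed in the proteasome, ubiquitin and antigen processing lists. Cell type markers are given by counts, sums and changes. Members and lists were chosen with earlier results of these data known. Alternatives were the average-normalized values, the raw intensities after quantile normalization or neqc, a floor of 1 or of 30, 3 other detection filters, a replicate block, BeadChip position as covariate, array weights, the mean of a gene's probes, and leaving out each array. The authors' value table of the series equals the cubic-spline table in every cell and was not used again.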

Additional observations from a re-analysis of the deposited data

Results flagged for a closer look

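In 76 groups of 4 arrays (38 proteasome genes in each genotype), 1 array stood apart by Dixon's criterion at 95%, a criterion that chance meets in about 5% of groups. It was wild-type replicate 1 for *Psmb2*, a beta subunit of the core, at 4284, against 5388 for the nearest of the other wild-type arrays. On the log2 scale, on which the criterion was computed, the gap was 0.923 of the range of the group. *Psmb2* had a log2 difference of 0.15 (exact permutation p = 0.343) and is not among the genes called, and a second *Psmb2* probe gave 0.17 without overlap between the groups (limma p = 0.1005, exact permutation p = 0.0286).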

How the results depend on the processing

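The median change of the proteasome genes moved by less than the spread between arrays (SD 0.032) in every setting. It ran from 0.0580 to 0.110 when single arrays were left out. Less the median of all genes, it was 0.085 as reported and 0.189 in the average-normalized table, a move larger than that spread. Of 5 genes higher at an unadjusted p under 0.05, 3 were found in the average-normalized table (with 1 lower, *Psme4*). With BeadChip position as covariate 2 were found, beside 5.43% of all genes. With array weights 1 gene was lower (*Psme3*), beside 9.29% of all genes. There 1 member passed adjustment (*Psmb10*, limma adjusted p = 0.0493 of a range of 0.0493 to 0.423 over the settings), among 87 of all 8051 genes. Leaving out single arrays gave 1 to 7 higher, 0 to 1 lower and 0 at adjusted p. The 1 came without wild-type replicate 4, where 5.13% of all genes were higher. The 7 came without wild-type replicate 3, where 8.63% of all genes were higher. The share of all genes lower ran from 3.91% to 8.39% in the same 2 settings. *Psmb10* alone passed without wild-type replicate 4, *Psmb10* and *Psmg3* without Hfe-/-xTfr2mut replicate 1, 2 or 4, and *Psma2* and *Psmb10* without wild-type replicate 1. *Psme3* was lower without Hfe-/-xTfr2mut replicate 3 or wild-type replicate 3. In the average-normalized table *Psmd10* (-0.0018) and *Psmd9* (-0.015) changed sign. There the median of all genes was -0.083, 34 of 38 members lay above it and 24 were positive, and 3.38% of all genes were higher and 12.2% lower, against 6.79% and 5.70% as reported. The cause of these shifts was not tested. Of 380 values of 19 named genes under 20 settings, 333 kept direction and side of the threshold, 34 no longer passed, 11 newly passed and 2 reversed. Same-numbered arrays had correlations of -0.348 to 0.101, so the numbers do not pair them. The replicate block gave 2 higher members, beside 5.25% of all genes.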
